A study of Equus caballus with 15 samples.

Results

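Horse macrophages that had received interleukin-1ß together with the conditioned medium of mesenchymal stromal cells (IL-1ß plus MSC-CM) were compared with macrophages that had received neither. The comparison used 6 of the 15 RNA-seq libraries of the study, 3 treated and 3 untreated, taken by their labels alone. It covered the 11628 of 16932 listed genes whose mean level over the 15 libraries was at least 1 CPM (a gene's read count scaled to the total of its library). The study asked how orthobiologic treatments of equine joints act on macrophages activated by IL-1ß. Monocytes from the blood of 2 geldings (3 and 5 years old) were grown with M-CSF at 30 ng/ml for 5 days to give macrophages in all groups, the untreated one included. The treated group then had IL-1ß at 10 ng/ml and MSC-CM as 25% of the medium for 24 h, after which the cells were washed. The labels have RNA taken then, while the published methods add a further culture period, and which holds for these libraries is not settled. The medium came from bone marrow MSC of 3 further horses, 2, 5 and 5 years old. The remaining 9 libraries had IL-1ß alone, or IL-1ß with platelet rich plasma (PRP) lysate or autologous conditioned serum (ACS), 3 libraries each.

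Treated and untreated cells differed in both agents, and no group had MSC-CM without IL-1ß or had unconditioned medium. The effect of MSC-CM and that of IL-1ß therefore cannot be told apart in this comparison. Which macrophage donor gave which library, or whether each group held both, was not stated in the sources used here. The titles of all 15 libraries carry the same prefix, whose meaning was not given there. The study called its untreated and IL-1ß libraries technical replicates. It called its MSC-CM, PRP lysate and ACS libraries biological replicates, with treatments taken from several donor horses. The limma p-values below rest on the spread within groups, pooled over all 15 libraries unless a smaller fit is named. That spread may be technical in the untreated and IL-1ß groups, and may include differences between treatment donors in the other groups.

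IL-1ß is a cytokine of inflamed joints that signals through MyD88 and the transcription factor NF-kB, which turns on cytokines, chemokines and its own inhibitors. MSC are stromal cells used in equine practice for their secreted factors, and their conditioned medium carries those factors without the cells. Macrophages answer such signals by shifting cytokine output, metabolism and scavenging. Shortage of amino acids or load in the endoplasmic reticulum (ER) is read by separate kinases that converge on the translation factor eIF2 and on ATF4, a transcription factor for genes of amino acid synthesis and uptake.

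The 6 libraries held between 33266079 and 44155361 reads on genes, so that 1 read was worth 0.0226 to 0.0301 CPM. The mean distance between treated and untreated libraries (53.8, Euclidean distance of log2 values over the tested genes) exceeded that within the treated (40.4) and the untreated (41.0) libraries. IL-1ß plus MSC-CM library 1 stood apart from its fellows. It lay 47.7 and 43.7 from libraries 2 and 3, which lay 29.8 from each other, and 248 genes stood 2-fold or more from the mean of the other 2 in library 1, against 53 and 27 in libraries 2 and 3.

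Macrophage markers were present throughout. The summed level of 11 tested macrophage markers was 5496, 4841 and 5935 CPM in the treated libraries and 6343, 6893 and 4970.1 CPM in the untreated ones, so the groups overlapped. CD68, a lysosomal protein of macrophages, stood at 1408, 1393 and 1489 CPM in the treated and 2157, 1990.0 and 1911 CPM in the untreated libraries, each treated one lower (log2 -0.50 ± 0.13, limma adjusted p = 0.0697). CD14, the lipopolysaccharide coreceptor of monocytes, was listed at only 2.49, 1.8 and 2.86 CPM there, in a row that joins 2 Ensembl identifiers. Stromal markers summed to 34.8 to 40.8 CPM in treated and 35.5 to 44.5 CPM in untreated libraries, most of it ACTA2 (smooth muscle actin), at 32.9, 25.9 and 29.4 CPM against 28.9, 27.6 and 32.9 CPM. The collagen COL1A1 was at 0.36 CPM or less in the treated libraries, and POSTN at 0. T lymphocyte markers were clearly detected, at 1615, 1653 and 1530.5 CPM in sum in the treated libraries against 802, 809 and 1150.1 CPM in the untreated ones.

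**Figure D1:**
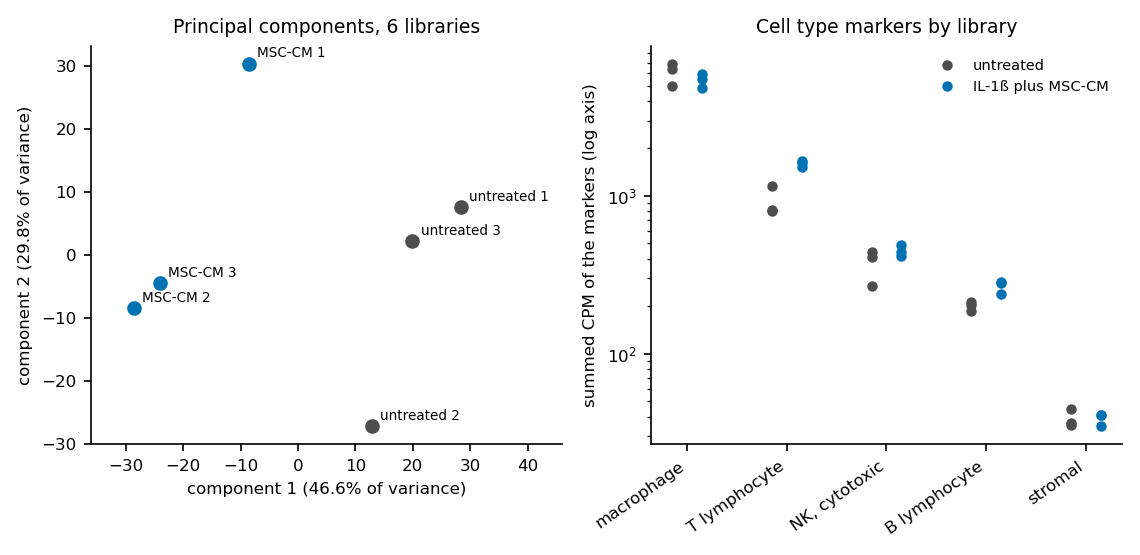
Left, principal components 1 and 2 of the 6 libraries (46.6% and 29.8% of the variance of log2(CPM + 1)). Right, the summed CPM of each marker list in each library on a log axis. Component 1 separated the groups, treated library 1 and untreated library 2 lay at the ends of component 2, and the T lymphocyte sums of the 3 treated libraries lay above those of the 3 untreated ones.

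Of the 11628 genes, 77 (0.662%) differed by 2-fold or more with an adjusted p no higher than 0.05 (limma on log2(CPM + 1), fitted over all 15 libraries, Benjamini-Hochberg adjusted). Of these, 56 (0.482%) were higher and 21 (0.181%) lower with IL-1ß plus MSC-CM, and in all 77 the treated and the untreated libraries did not overlap. Without overlap of the groups stood 3581 genes (30.8%), 2543 (21.9%) above and 1038 (8.93%) below. Log2 differences below are treated minus untreated on the log2(CPM + 1) scale, ± standard error (SE), while folds are ratios of mean CPM. The median difference of all tested genes was 0.10, and scaling by RLE size factors moved it by -0.11, to -0.01. Under that scaling 34 genes were higher and 36 lower. Restricted to the 6 libraries compared, the fit called 189 genes (1.63%), 139 higher (1.2%) and 50 lower (0.43%), and all 77 were among them.

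The count was smaller with any one of the 6 libraries left out. Leaving out treated library 1, 2 or 3 left 16, 12 and 12 calls, and leaving out untreated library 1, 2 or 3 left 17, 16 and 10. Called in each of these 6 fits were 9 genes, namely CHAC1, PSAT1, GPT2, ASNS, TRIB3, DDIT4, PYCR1, CEBPD and CXCL10, while 53 of the 77 were called in none of them. In the fit of the 6 libraries, which called 189, the count went both ways, from 22 to 319.

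**Figure D2:**
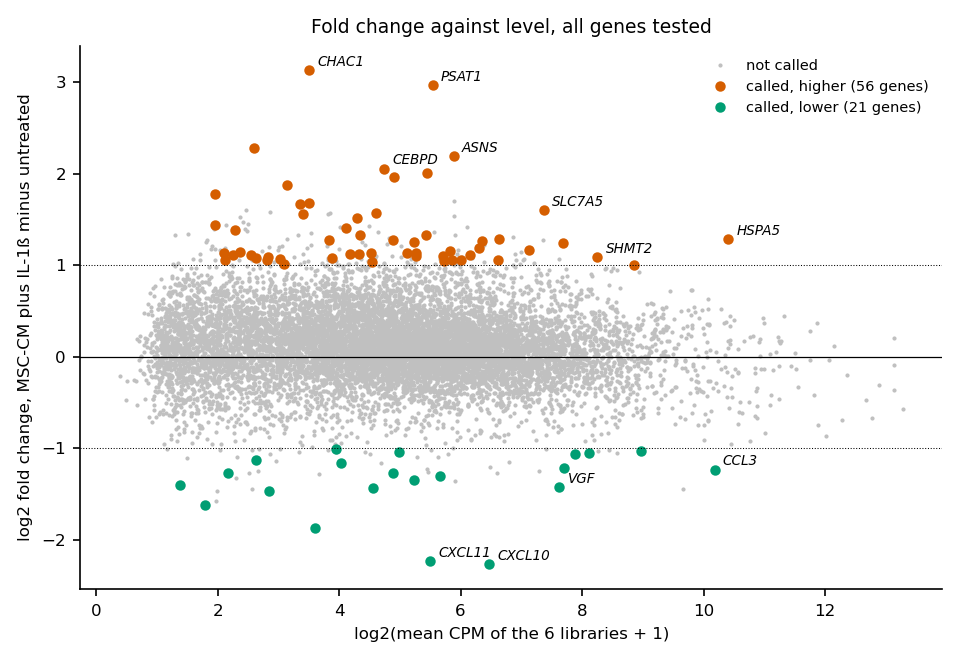
Log2 difference, treated minus untreated, of each tested gene (vertical axis) against the log2 of its mean CPM + 1 over the 6 libraries (horizontal axis), with dotted lines at a fold change of 2. The 56 genes called higher and the 21 called lower are coloured, and most genes lay near the median of 0.10.

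The largest rises were in genes of the amino acid stress response. Of 35 tested members of a list of ATF4 targets and regulators, 12 were called higher and 0 lower, against 0.482% and 0.181% of all genes. The list was written with earlier results of these data known, so these counts are a description. At the adjusted p alone, 15 were higher and 0 lower, against backgrounds of 1.39% and 0.525%. The median log2 difference of the list was 0.63 beside 0.10 for all genes, and 30 of 35 members lay above 0. Leaving out single libraries left 6 members called without untreated library 2, 7 without treated library 3 or untreated library 3, and 8 or 9 without the others.

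CHAC1 degrades glutathione and is among the most inducible genes of this response (chromosome 1, 149132841 to 149134495 in EquCab3.0). It was measured at 20.4, 17.6 and 20.01 CPM with IL-1ß plus MSC-CM and at 1.23, 1.04 and 1.74 CPM in untreated cells. All treated libraries lay far above the untreated ones. CHAC1 was 14.5-fold higher, a log2 difference of 3.13 ± 0.40 (limma adjusted p = 0.00459).

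Enzymes that make serine, alanine, asparagine and proline rose with it. PSAT1, the aminotransferase of serine synthesis, stood at 70.4, 78.5 and 96.0 CPM in treated and 10.2, 9.45 and 8.75 CPM in untreated libraries, 8.62-fold higher (log2 2.97 ± 0.35, limma adjusted p = 0.00259). GPT2, the mitochondrial alanine aminotransferase, stood at 7.70, 10.1 and 9.29 CPM against 0.945, 0.897 and 1.35 CPM, 8.47-fold higher (2.28 ± 0.25, adjusted p = 0.00179). ASNS, asparagine synthetase, stood at 84.1, 94.1 and 110.3 CPM against 19.6, 19.1 and 21.9 CPM, 4.76-fold higher (2.19 ± 0.28, adjusted p = 0.00459). In none of these genes did a treated library come near an untreated one. PHGDH, which opens the serine pathway, had 14.1, 19.6 and 15.3 CPM against 5.77, 3.39 and 4.15 CPM (log2 1.68 ± 0.26, limma adjusted p = 0.0134). SHMT2, the mitochondrial enzyme that passes a carbon of serine to folate, had 422, 404 and 412 CPM against 197, 162 and 227 CPM, with a fold of 2.11. PYCR1, the last enzyme of proline synthesis and no member of the list, was 2.51-fold higher, and PCK2, the mitochondrial PEP carboxykinase, had 198, 180.3 and 200.1 CPM against 89.9, 76.3 and 90.2 CPM.

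A set of 4 amino acid carriers rose as well, of which SLC1A4 and SLC43A1 are not in the list. SLC7A5, the light chain of the large neutral amino acid exchanger, had 207, 269 and 269.7 CPM against 68.3, 82.4 and 93.0 CPM, a 3.06-fold difference (log2 1.60 ± 0.33, limma adjusted p = 0.0349). SLC1A4, a carrier of serine and alanine, had 8.49, 13.2 and 16.8 CPM against 2.32, 2.27 and 3.49 CPM, and its treated libraries spread widely. SLC43A1, a carrier of branched-chain amino acids, had 13.9, 15.4 and 14.2 CPM against 3.93, 4.04 and 3.67 CPM (1.67 ± 0.24, adjusted p = 0.00914). The glycine carrier SLC6A9 had 12.6, 16.5 and 15.4 CPM against 4.19, 3.25 and 5.86 CPM (adjusted p = 0.0252). SLC7A11, the cystine carrier, was not called. Its 5.55, 13.7 and 24.9 CPM against 4.83, 7.74 and 4.60 CPM overlapped between the groups.

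TRIB3, DDIT4 and EIF4EBP1 restrain growth signalling. TRIB3 is a pseudokinase that feeds back on ATF4, and DDIT4 limits the growth kinase mTORC1, which acts on EIF4EBP1. TRIB3 had 67.0, 63.0 and 77.3 CPM against 16.2, 14.3 and 19.1 CPM, 4.18-fold higher (log2 2.005 ± 0.19, limma adjusted p = 0.000452). DDIT4 had 44.0, 47.5 and 48.7 CPM against 11.8, 10.6 and 11.3 CPM, 4.17-fold higher (1.97 ± 0.18, adjusted p = 0.000452). EIF4EBP1 had 63.0, 50.2 and 67.9 CPM against 27.3, 18.1 and 25.0 CPM (adjusted p = 0.0145). Both groups were tight in these 3 genes and did not overlap.

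The transcription factors at the head of the response were not called. ATF4 itself had 806, 672 and 728 CPM against 563, 483 and 766 CPM (log2 0.31, limma adjusted p = 0.636), with overlap of the groups. DDIT3 (CHOP), its partner in prolonged stress, differed by -0.18 (adjusted p = 0.813). ATF3, a stress-induced repressor, had 677, 939 and 827 CPM against 1056, 1191 and 1527 CPM, a difference of -0.62 that did not pass (adjusted p = 0.118). PPP1R15A, which guides the dephosphorylation of eIF2, differed by -0.56 (adjusted p = 0.162).

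**Figure D3:**
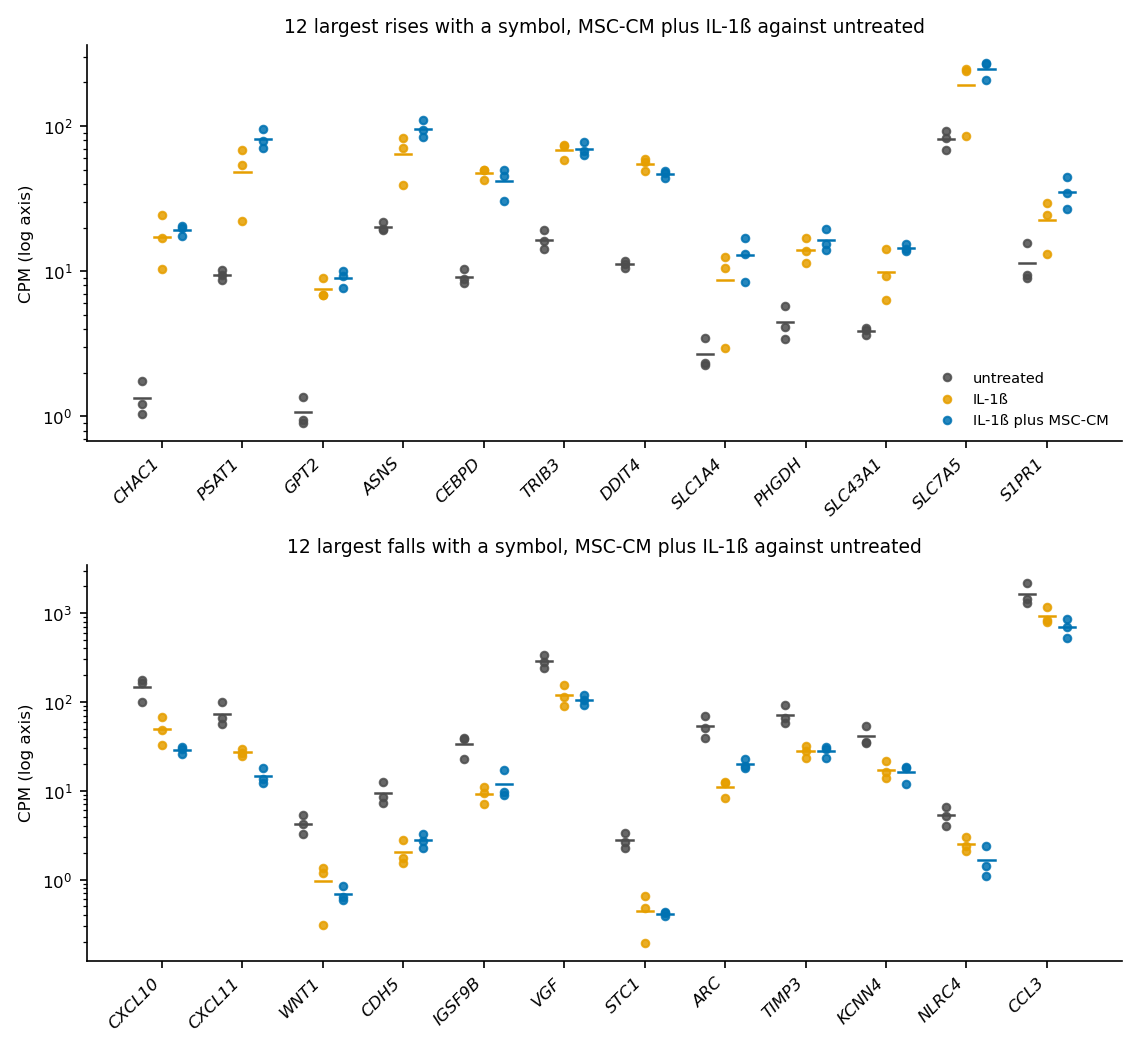
CPM on a log axis of 12 rises (upper) and 12 falls (lower), the largest of the called genes with a symbol. Points are the 3 libraries each of untreated cells, IL-1ß alone and IL-1ß plus MSC-CM, and bars are group means. CHAC1, PSAT1 and GPT2 lead the rises, CXCL10 and CXCL11 the falls, and in none of the 24 genes do the treated and untreated points overlap.

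Some ER chaperones and genes of the unfolded protein response rose. Of 24 tested members of that list, 4 were called higher and 0 lower, against 0.482% and 0.181% of all genes, and all 24 had a log2 difference above 0, as had 63.1% of all genes. The list median was 0.63, or 0.51 with RLE factors. HSPA5 (BiP), the main chaperone of the ER, had 1803, 1584 and 2391 CPM in treated against 824, 769.9 and 747 CPM in untreated libraries. Each treated library exceeded each untreated one, with a fold of 2.47 (log2 1.28 ± 0.21, limma adjusted p = 0.0179). HERPUD1, of the ER degradation machinery, had 265, 252 and 355 CPM against 121, 114 and 128 CPM, 2.40-fold higher (1.24 ± 0.19, adjusted p = 0.0145). SDF2L1 had 158, 115 and 144 CPM against 58.5, 42.8 and 68.7 CPM, and CRELD2 had 117, 90.4 and 138 CPM against 46.8, 41.2 and 51.8 CPM. Both are small proteins that work with ER chaperones.

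At the adjusted p alone, 9 ER genes were higher and 0 lower, against 1.39% and 0.525% of all genes. Among them was XBP1, the transcription factor made active by splicing in ER stress, with 257, 249 and 263 CPM against 143, 142 and 152 CPM (log2 0.81, limma adjusted p = 0.0131). The chaperone HYOU1 differed by 0.94 (adjusted p = 0.0286). PDIA3 and CANX, which fold glycoproteins, lay lowest in the list, at 0.07 and 0.13. Leaving out treated library 2 left 1 ER gene called in the 15-library fit, leaving out any of the others left 0, and RLE factors left 2. In the fit of the 6 libraries, which called 4, leaving out single libraries left 2 (without treated library 3) to 5, and HSPA5 and HERPUD1 were called in all 6.

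Genes of the translation machinery were listed after their values had been seen. Of 20 aminoacyl tRNA synthetases, which charge tRNA with amino acids, 17 lay above 0, against 63.1% of all genes, with a median of 0.29. None was called by limma or edgeR or DESeq2 (0 of 20), 9 were higher at an unadjusted p of at most 0.05 (11.7% of all genes), and 3 passed the adjusted p alone (1.39% of all genes). These 3 were GARS1 (341, 314 and 376 CPM against 212, 193 and 209 CPM, log2 0.74 ± 0.12, limma adjusted p = 0.0145), AARS1 (0.63, adjusted p = 0.0346) and CARS1 (0.77, adjusted p = 0.0397), the enzymes for glycine, alanine and cysteine. The 49 cytosolic ribosomal proteins were all above 0, again beside 63.1% of all genes, with a median of 0.35, or 0.23 with RLE factors. None was called by any of the 3 tools (0 of 49), and 1 had an unadjusted p of at most 0.05.

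CEBPD, a C/EBP transcription factor of the acute phase and of macrophage activation, was the largest rise on the log2 scale outside the amino acid genes. It had 50.1, 30.3 and 45.5 CPM in treated and 10.3, 8.33 and 8.78 CPM in untreated libraries, 4.59-fold higher (log2 2.06 ± 0.20, limma adjusted p = 0.000452). Treated library 2 was the lowest of its group and still far above the untreated cells. No other one of the 6 tested genes of the C/EBP list was called, and the list median was -0.01. KLF2, a factor that quiets macrophages and keeps lymphocytes at rest, had 81.9, 97.9 and 88.3 CPM against 18.8, 32.5 and 30.9 CPM (1.70, adjusted p = 0.0631). It passed only in the fit of the 6 libraries (adjusted p = 0.00928).

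A group of 3 chemokines fell. Of 18 tested members, 3 were called lower and 0 higher, against 0.181% and 0.482% of all genes. The fit of the 6 libraries called 3 lower and 1 higher, against 0.43% and 1.2%, and the largest rise in the list was 1.23. Below 0 lay 14, against 36.9% of all genes, with a median of -0.56 beside 0.10 for all genes. Leaving out single libraries left 2 called without treated library 1 or untreated library 2, and 1 without any of the others. CXCL10 (IP-10) and CXCL11 draw CXCR3-bearing T cells and NK cells, and both are induced by interferon. CXCL10 had 26.0, 29.5 and 30.7 CPM in treated and 175, 165 and 98.8 CPM in untreated libraries, 5.09-fold lower (log2 -2.27 ± 0.30, limma adjusted p = 0.00602). CXCL11 had 13.6, 12.2 and 18.2 CPM against 100.3, 65.6 and 55.7 CPM, 5.03-fold lower (-2.23 ± 0.39, adjusted p = 0.0202). Untreated libraries varied more than treated ones in both genes, but the lowest of them stayed above the highest treated one.

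CCL3 (MIP-1 alpha), a chemokine for monocytes, had 846, 694 and 528 CPM against 1419, 1307 and 2172 CPM, 2.37-fold lower (log2 -1.23 ± 0.21, limma adjusted p = 0.0191). An unnamed gene, ENSECAG00000022992 (chromosome 11, 37489249 to 37521561), spans CCL3 (37504091 to 37514732), and how their shared reads were assigned is not known. It had 163, 115 and 95.0 CPM against 264, 229.9 and 374 CPM (-1.22 ± 0.24, adjusted p = 0.0309). CCL2, the main chemokine for blood monocytes, had 3534, 2344 and 2929 CPM against 6313, 4738 and 4901 CPM and was not called (-0.86, adjusted p = 0.215). CCL20, which draws CCR6-bearing cells, overlapped between groups (0.18, adjusted p = 0.904).

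The wider NF-kB program was not called. Of 38 tested NF-kB cytokines and effectors, 0 were called by limma and 0 by edgeR, while DESeq2 called 2. The fit of the 6 libraries called 2 lower. At an unadjusted p of at most 0.05, 1 was higher and 7 lower, where all genes gave 11.7% higher and 3.98% lower (15.7% in all), and the list median was -0.31. ICAM1, an adhesion protein for leukocytes, had 715, 751 and 654 CPM in treated and 1026, 991 and 1226 CPM in untreated libraries. Its difference of -0.61 ± 0.14 passed the adjusted p (limma, 0.0414) but not the fold. F3, the tissue factor that starts coagulation, had 20.7, 25.3 and 28.0 CPM against 53.3, 48.0 and 83.1 CPM (-1.25 ± 0.33, adjusted p = 0.0756, and 0.0162 in the fit of the 6 libraries).

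Among 19 NF-kB inhibitors and subunits, none was called by limma, edgeR or DESeq2, none had an unadjusted p of at most 0.05, and the median was -0.06. TNFAIP3 (A20), which switches NF-kB signalling off, had 140.4, 184.6 and 145.4 CPM against 155.4, 211.6 and 303.5 CPM (-0.47, limma adjusted p = 0.390). NFKBIE, an inhibitor that holds NF-kB in the cytoplasm, differed by -0.53 (adjusted p = 0.325).

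Genes of the IL-1 family and its receptors were not called by limma. Of 18 tested, 0 were called by limma or edgeR and 1 by DESeq2, 3 were lower and 1 higher at an unadjusted p of at most 0.05, and the median was -0.15. IL18BP, which binds and neutralizes IL-18, had 1302, 1237 and 1048 CPM against 2104, 1916 and 2836 CPM. All treated libraries lay below the untreated ones (-0.92 ± 0.21, limma adjusted p = 0.0414, under the fold threshold). IL1R2, the decoy receptor for IL-1, had 29.1, 29.3 and 35.2 CPM against 50.1, 48.4 and 54.2 CPM (-0.69, adjusted p = 0.155). IL1RN, the receptor antagonist, overlapped (-0.23, adjusted p = 0.651), as did the receptor IL1R1 (-0.16, adjusted p = 0.949). IL18RAP, a chain of the IL-18 receptor, differed by 0.70 (adjusted p = 0.0732). NLRC4, an inflammasome sensor of bacterial protein, fell from 5.26, 6.64 and 4.03 CPM to 1.11, 2.39 and 1.43 CPM (-1.26 ± 0.29, adjusted p = 0.0423).

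A list of 12 tested genes held transcripts of cytokines that the study could measure in the culture supernatants, with 2 enzymes standing for prostaglandin E2. CXCL10 was the only one called. That is 1 of 12 lower, where 0.181% of all genes were. Of the 12, 2 had a difference above 0, against 63.1% of all genes, and the list median was -0.48 beside 0.10. IL1B had 6.43, 6.61 and 10.1 CPM in treated and 8.96, 8.19 and 12.6 CPM in untreated libraries (log2 -0.33 ± 0.67, limma adjusted p = 0.906). IL6 had 23.6, 19.0 and 22.2 CPM against 34.4, 48.2 and 32.3 CPM. Each treated library was below each untreated one in IL6. Its adjusted p passed only in the fit of the 6 libraries, and its difference lay under the fold threshold (-0.78 ± 0.51, limma adjusted p = 0.525, and 0.0350 with 6).

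TNF overlapped, with 34.4, 36.1 and 28.8 CPM against 43.2, 34.1 and 83.6 CPM (-0.58 ± 0.27, limma adjusted p = 0.320). The neutrophil chemokine CXCL8 had 395, 402 and 645 CPM against 655, 598 and 939.7 CPM (-0.61 ± 0.39, adjusted p = 0.513). CCL5 (RANTES) had 954, 653 and 547 CPM against 1235, 884 and 1478 CPM (-0.75 ± 0.29, adjusted p = 0.212). The groups overlapped in both chemokines. IL10, an anti-inflammatory cytokine, had 10.8, 7.51 and 9.31 CPM against 14.1, 11.8 and 10.6 CPM (-0.37, adjusted p = 0.441). PTGS2 (COX-2), which makes the precursor of prostaglandin E2, had 5.01, 8.97 and 14.3 CPM against 18.0, 24.4 and 15.5 CPM (-1.04 ± 0.59, adjusted p = 0.443). CXCL1 (-0.12), IFNG (-0.04), IL4 (0.10) and PTGES (0.00), the prostaglandin E synthase, differed least, and the sign of these 4 depended on the processing.

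**Figure D4:**
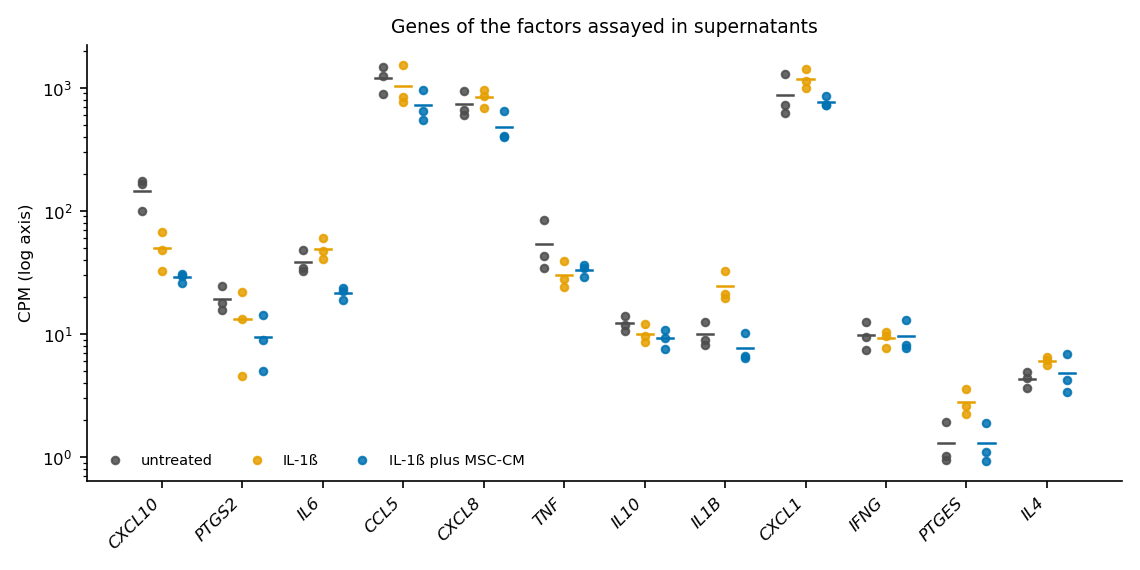
CPM on a log axis of the 12 transcripts for the factors assayed in supernatants, with points for the 3 libraries each of untreated cells, IL-1ß alone and IL-1ß plus MSC-CM and bars for group means. CXCL10 is the gene in which the treated and untreated libraries lie farthest apart, and IL1B is higher in the IL-1ß libraries than in the other 2 groups.

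Immediate early genes, the first transcripts after a stimulus, held 2 falls. Of 30 tested, 2 were called lower and 0 higher, against 0.181% and 0.482% of all genes, and the median was -0.29. The largest difference in the list was a rise, of 1.70. The fit of the 6 libraries called 3 lower and 1 higher, against 0.43% and 1.2% of all genes. ARC, best known from neurons, had 18.1, 22.5 and 18.8 CPM against 39.1, 50.3 and 69.5 CPM (log2 -1.34 ± 0.24, limma adjusted p = 0.0239). FOSL1, a subunit of the AP-1 factor, had 8.15, 9.51 and 10.1 CPM against 17.7, 21.1 and 19.99 CPM (-1.01 ± 0.22, adjusted p = 0.0404). FOS, the prototype of this class, differed by -1.36 without passing (adjusted p = 0.0730). EGR1 overlapped between the groups (0.03, adjusted p = 0.991). With RLE or TMM factors 4 of the 30 were called, and leaving out single libraries left 1 without untreated library 1 and 0 otherwise.

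Interferon-stimulated genes were listed without the chemokines CXCL10 and CXCL11, which stand with the chemokines above. Of 42 tested, 0 were called by limma, edgeR or DESeq2, 3 were higher and 2 lower at an unadjusted p of at most 0.05, and the median was -0.03. IDO1, which degrades tryptophan, passed the adjusted p alone, with 125, 134 and 127 CPM against 68.96, 64.2 and 73.5 CPM (log2 0.89 ± 0.19, limma adjusted p = 0.0372). OASL, an antiviral protein, passed in the other direction, with 126, 126 and 134 CPM against 212, 183 and 199 CPM (-0.62 ± 0.14, adjusted p = 0.0467). MX1 and ISG15, the usual readouts of interferon, overlapped between the groups (0.07 and 0.10, adjusted p = 0.953 and 0.961). CXCL10 and CXCL11 fell, while these readouts were not called.

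T lymphocyte genes lay higher with IL-1ß plus MSC-CM. All 9 tested T lymphocyte markers lay above 0, with a median of 0.82, or 0.70 with RLE factors, and in 7 of 9 all treated libraries exceeded the untreated ones, where 63.1% of all genes lay above 0 and 21.9% did not overlap in this direction. The 9 markers held 0 calls by limma, edgeR and DESeq2, 6 higher at an unadjusted p of at most 0.05 (11.7% of all genes) and 1, CD3D, at the adjusted p alone (1.39% of all genes). CD3D, a chain of the T cell receptor complex, had 120.5, 149.1 and 135.7 CPM in treated and 56.7, 72.7 and 91.3 CPM in untreated libraries (log2 0.89, limma adjusted p = 0.0397). In these bulk libraries, more cells of a type and more RNA per cell cannot be told apart. The T lymphocyte sums of the IL-1ß libraries ran from 1108 to 2104 CPM and included the range of the treated libraries.

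A list of 44 T lymphocyte receptor, costimulation and lineage genes, put together after their values had been seen, held 9 calls, all higher, beside 0.482% of all genes, and its median was 0.83. S1PR1, which guides lymphocytes out of tissue, had 26.8, 44.4 and 34.5 CPM against 8.96, 15.6 and 9.35 CPM, 3.12-fold higher (log2 1.57 ± 0.31, limma adjusted p = 0.0309). FOXP3, the factor of regulatory T cells, had 82.1, 88.4 and 62.3 CPM against 32.0, 33.6 and 36.0 CPM (1.16, adjusted p = 0.0252). GATA3, of type 2 helper cells and other lymphocytes, had 126, 146 and 120.3 CPM against 48.2, 71.0 and 70.1 CPM (1.06, adjusted p = 0.0180). ICOS, a costimulator, had 560.1, 649.6 and 647 CPM against 277, 309 and 338 CPM (1.01, adjusted p = 0.0309). The groups were apart in all of them, and the untreated level of FOXP3 varied little.

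The other 5 calls were LEF1, CD247, SLAMF1, LAX1 and ZC3H12D, with log2 differences of 1.05 to 1.15. LEF1, a Wnt-responsive factor of young and resting T cells, had 38.6, 55.3 and 47.2 CPM against 17.3, 22.6 and 22.2 CPM (1.14 ± 0.24, limma adjusted p = 0.0375). Most of these folds lay just above 2, and 4 genes of the list were called with RLE factors. Without any one of the 6 libraries the 15-library fit kept 0 of the 9 calls. In the fit of the 6 libraries, which called 13 of the list, leaving out single libraries left 14, 1 and 1 without treated library 1, 2 or 3 and 1, 13 and 18 without untreated library 1, 2 or 3, and FOXP3 was called in all 6. Markers of NK cells had a median of 0.23 and those of B cells one of 0.47. NK sums were 489, 444 and 414 CPM against 409, 267 and 443 CPM, and B sums were 239, 286 and 282 CPM against 205, 186 and 214 CPM.

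Cell cycle genes lay higher with IL-1ß plus MSC-CM, mostly by less than 2-fold. All 47 tested genes of DNA replication and all 60 of mitosis had a log2 difference above 0, as had 63.1% of all genes, with medians of 0.60 and 0.73. In 42 of the 47 and 52 of the 60 the treated libraries all exceeded the untreated ones, against 21.9% of all genes. None was called by limma over the 15 libraries (0 of 47 and 0 of 60), and edgeR called none either, while DESeq2 called 1 replication gene. At an unadjusted p of at most 0.05 stood 35 and 52, against 11.7% of all genes, and 7 and 11 passed the adjusted p alone, against 1.39% of all genes. The fit of the 6 libraries passed 26 and 40 at the adjusted p alone, against 5.92%, and called 2 replication genes and 1 mitosis gene higher, against 1.2%.

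RRM2, the subunit of ribonucleotide reductase made in S phase, had 149, 178 and 161 CPM in treated and 88.9, 103 and 104 CPM in untreated libraries (log2 0.71 ± 0.14, limma adjusted p = 0.0321). UHRF1, which keeps DNA methylation through replication, had 245, 281 and 236 CPM against 126, 137 and 171 CPM (0.82 ± 0.16, adjusted p = 0.0328). KIF2C, a mitotic kinesin, had 58.7, 64.2 and 58.6 CPM against 32.6, 31.1 and 34.9 CPM (0.86 ± 0.15, adjusted p = 0.0182). DLGAP5, a spindle protein, had 52.9, 57.9 and 50.7 CPM against 26.4, 30.1 and 31.2 CPM (0.86 ± 0.16, adjusted p = 0.0239). In all 4 the treated libraries were tight and apart from the untreated ones. CDCA7, a cell cycle gene outside both lists, was called (77.2, 85.6 and 69.4 CPM against 34.9, 39.9 and 34.6 CPM, adjusted p = 0.0134). T lymphocyte markers moved with these genes, and which cells the cell cycle transcripts came from was not tested.

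Matrix genes held 1 call, TIMP3, which inhibits metalloproteinases and lies bound to matrix. It had 23.4, 29.8 and 31.0 CPM in treated and 57.5, 65.6 and 91.1 CPM in untreated libraries, 2.54-fold lower (log2 -1.30 ± 0.21, limma adjusted p = 0.0168). Beside this 1 call in 27 tested matrix genes stand 0.181% of all genes called lower, and 8 of the 27 lay above 0 and the median was -0.24. The list of TGF-beta targets and ligands had no call among 24 genes by limma over the 15 libraries or by edgeR (0), 1 by DESeq2, 3 higher and 5 lower at an unadjusted p of at most 0.05, and a median of 0.04, or -0.04 with RLE factors.

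A list of 20 osteoclast and cell fusion genes, also chosen after the values were seen, had 1 call, lower, beside 0.181% of all genes, and a median of -0.45. OCSTAMP, a membrane protein needed for macrophage fusion, had 162, 170.5 and 119.97 CPM against 304, 250.1 and 397 CPM (log2 -1.06, limma adjusted p = 0.0252). Its relative DCSTAMP had 42.9, 74.1 and 90.6 CPM against 142.6, 187.5 and 119.3 CPM (-1.14, adjusted p = 0.468), and the bone protease CTSK had 1169.9, 1305 and 1279.99 CPM against 2035, 2161 and 1579 CPM (-0.61, adjusted p = 0.419). Both reached an adjusted p of 0.0371 and 0.0328 in the fit of the 6 libraries. ACP5, the acid phosphatase of osteoclasts, overlapped between the groups (0.05, adjusted p = 0.957).

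Of 14 Hedgehog and Wnt genes, LEF1 was called higher and WNT1 lower, beside 0.482% and 0.181% of all genes. WNT1, a secreted Wnt ligand, had 0.838, 0.591 and 0.632 CPM against 5.29, 3.22 and 4.18 CPM (log2 -1.62 ± 0.27, limma adjusted p = 0.0182). VGF, a secreted peptide precursor, had 92.7, 105 and 119 CPM against 239, 282 and 337 CPM, 2.702-fold lower (-1.42 ± 0.21, adjusted p = 0.0131). STC1, a secreted glycoprotein, had 0.385, 0.437 and 0.421 CPM against 2.68, 2.27 and 3.34 CPM (-1.40 ± 0.27, adjusted p = 0.0319). These genes were clearly apart between the groups, though WNT1 and STC1 lay below 1 CPM in the treated libraries, where the added 1 shrinks the log2 difference.

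Other called genes were lower as well. CDH5 (VE-cadherin) had 2.29, 3.29 and 2.71 CPM against 7.36, 8.58 and 12.7 CPM (log2 -1.46 ± 0.34, limma adjusted p = 0.0487). IGSF9B, a cell adhesion protein, had 9.72, 16.9 and 8.85 CPM against 22.7, 38.8 and 38.5 CPM (-1.44 ± 0.32, adjusted p = 0.0414). The calcium-activated potassium channel KCNN4 had 18.2, 18.6 and 12.01 CPM against 34.1, 35.4 and 53.0 CPM (-1.27 ± 0.25, adjusted p = 0.0321). In each of the 3 the groups did not overlap, though the untreated libraries varied. The junction protein F11R (-1.16, adjusted p = 0.0409) and the ephrin receptor EPHA2 (-1.04, adjusted p = 0.0334) were also called lower. The transcription factor POU2F3 had 196, 167 and 174 CPM against 355, 315 and 451 CPM (adjusted p = 0.0145).

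Other called rises included genes of leukocyte trafficking and innate immunity. SELP (P-selectin), an adhesion protein of platelets and endothelium, had 29.5, 24.2 and 29.2 CPM against 7.53, 14.5 and 6.46 CPM (log2 1.52, limma adjusted p = 0.0239). Platelet markers summed to 101, 152 and 97.4 CPM against 182, 292 and 219.6 CPM. Nearly all of that sum was the integrin ITGB3 (97.2, 147.1 and 91.8 CPM against 176.0, 288.4 and 214.9 CPM, adjusted p = 0.485). GPR84, a receptor for medium-chain fatty acids on activated macrophages, had 4.17, 3.09 and 6.67 CPM against 0.843, 1.74 and 0.601 CPM (1.44, adjusted p = 0.0375). CFI, the complement factor that cleaves C3b, had 6.14, 6.58 and 5.24 CPM against 1.18, 1.85 and 2.07 CPM (1.38, adjusted p = 0.0189).

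Among genes known only by an Ensembl identifier, 5 were called higher and 4 lower. The largest rise was ENSECAG00000008946 on chromosome 10, with 3.47, 6.09 and 5.52 CPM against 0.511, 0.505 and 1.23 CPM (log2 1.78 ± 0.31, limma adjusted p = 0.0191). The largest fall was ENSECAG00000023677 (chromosome 7, 5617759 to 5620707), with 5.50, 3.03 and 4.05 CPM against 22.8, 17.5 and 13.8 CPM (-1.87 ± 0.39, adjusted p = 0.0347). ENSECAG00000031154 (1.14) and ENSECAG00000001584 (1.12) followed among the rises, and ENSECAG00000022992, described with CCL3, ENSECAG00000028571 (-1.12) and ENSECAG00000018875 (-1.03) among the falls.

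Metabolic and scavenging lists held no call by limma over the 15 libraries, and their medians lay near that of all genes. The 21 scavenger receptors and M2 markers had a median of 0.04, the 12 cholesterol efflux genes 0.05, the 36 genes of glycolysis and hypoxia 0.08 and the 32 of cholesterol and fatty acid synthesis 0.13. With RLE factors the first 3 medians turned to -0.09, -0.07 and -0.05. At an unadjusted p of at most 0.05 these lists held 2 higher and 2 lower, 2 and 1, 4 and 3, and 2 and 0 genes. EdgeR called none of them, and DESeq2 called 1 scavenger receptor or M2 marker and 2 genes of glycolysis and hypoxia. The fit of the 6 libraries called 1 scavenger receptor or M2 marker and 2 synthesis genes higher, and 1 glycolysis or hypoxia gene in each direction. CD163, the haemoglobin scavenger receptor, had 411, 322 and 709.8 CPM against 302, 281 and 147 CPM, apart between the groups but not called (log2 0.97, limma adjusted p = 0.234). MAF, a factor of resident macrophages, differed by 1.15 ± 0.33 (adjusted p = 0.0971). PPARG, a nuclear receptor of alternatively activated macrophages, had 48.0, 53.9 and 45.4 CPM against 64.4, 65.0 and 67.2 CPM, each treated library below each untreated one (-0.41 ± 0.12, adjusted p = 0.108).

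Some single genes in these lists differed more. VEGFA, the vascular growth factor, had 17.2, 20.8 and 29.8 CPM in treated and 7.66, 7.62 and 7.64 CPM in untreated libraries (log2 1.41 ± 0.41, limma adjusted p = 0.0955, and 0.0128 in the fit of the 6 libraries). SREBF1, which drives fatty acid synthesis, had 157, 172 and 162 CPM against 66.7, 56.3 and 74.7 CPM (1.31 ± 0.34, adjusted p = 0.0740, and 0.00397 with 6). In both genes the groups did not overlap. The sterol exporter ABCG1 differed by 0.77 (adjusted p = 0.229) and HILPDA, a lipid droplet protein of hypoxia, by -0.72 (adjusted p = 0.0587).

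Antioxidant, antigen presentation and Toll-like receptor lists were likewise uncalled by limma over the 15 libraries, edgeR and DESeq2, and the fit of the 6 libraries called 1 gene, TLR10. The 22 NRF2 genes had a median of -0.15, with 1 higher and 4 lower at an unadjusted p of at most 0.05. The 24 antigen presentation genes had a median of 0.00, with 2 higher and 3 lower, and the 15 Toll-like receptor genes one of -0.09, with 2 higher and 2 lower. CD40, through which T cells activate macrophages, differed by -0.62 (limma adjusted p = 0.104) and TLR10 by 1.00 (adjusted p = 0.0807).

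**Figure D5:**
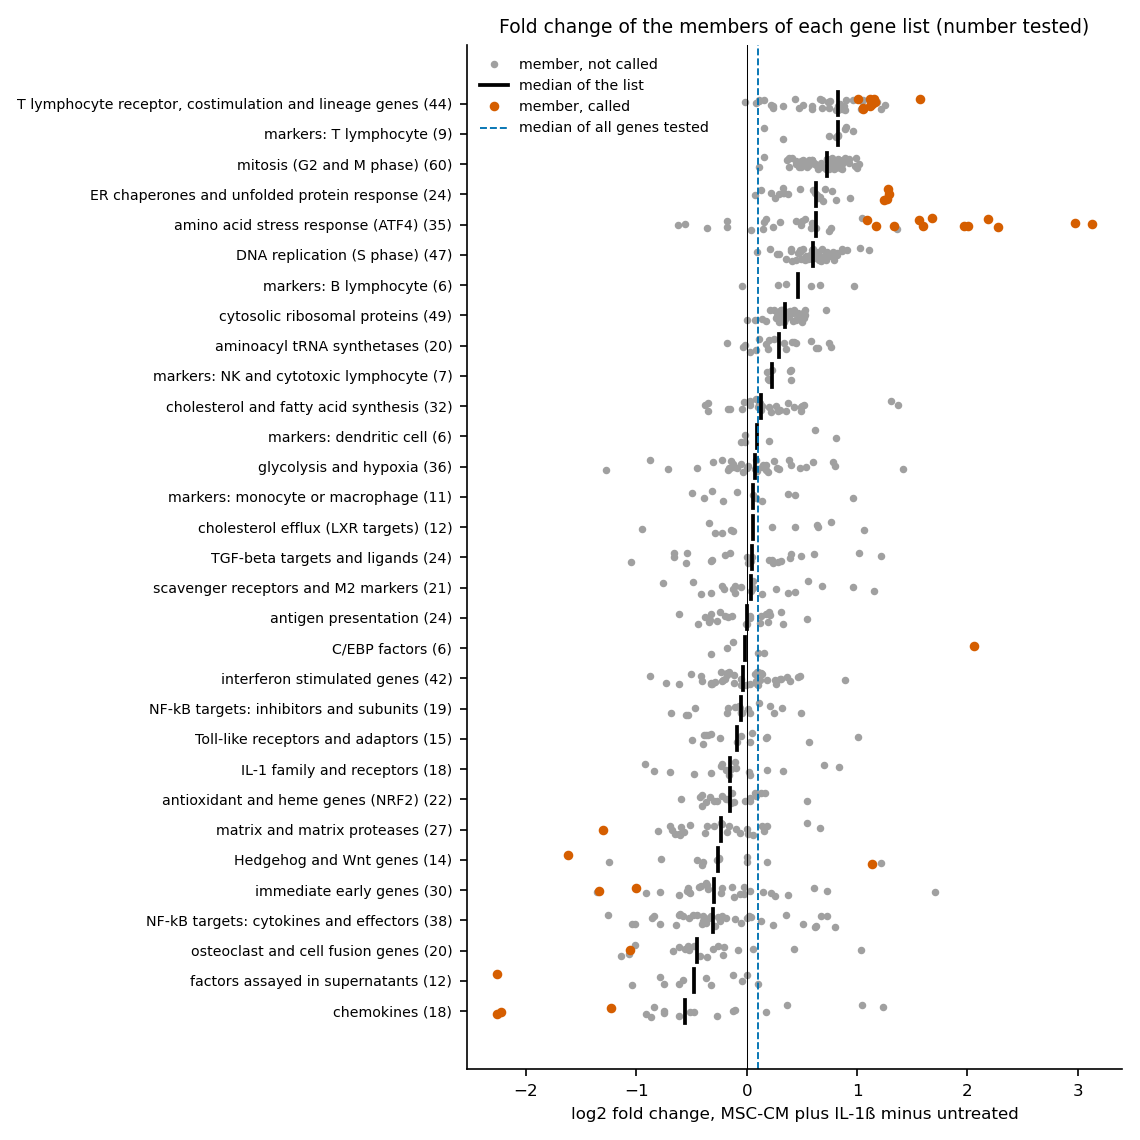
Log2 difference, treated minus untreated, of each tested member of the gene lists, with a bar at the list median and a dashed line at the median of all genes (0.10). The amino acid stress response (0.63), ER chaperones (0.63), DNA replication (0.60), mitosis (0.73) and T lymphocyte (0.82) medians lie to the right, and that of the chemokines (-0.56) to the left.

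Against IL-1ß alone, which received no MSC-CM, IL-1ß plus MSC-CM gave 0 called genes by limma over the 15 libraries (0%), with 651 at an unadjusted p of at most 0.05. EdgeR also called 0 and DESeq2 called 2. The IL-1ß libraries had a median SD over genes of 0.437 on the log2 scale, against 0.191 with MSC-CM and 0.199 untreated. The comparison of IL-1ß with untreated cells, which shares the untreated libraries, called 34 genes (0.292%). With IL-1ß alone CHAC1 stood at 17.2 CPM with an SD of 6.95 (n = 3). Its difference of 0.23 from IL-1ß plus MSC-CM had a 95% interval of -0.63 to 1.10. CEBPD was at 47.4 ± 4.19 CPM with IL-1ß alone, DDIT4 at 54.7 ± 5.15 CPM and TRIB3 at 68.5 ± 9.08 CPM, levels near those with MSC-CM.

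Some members sat between. PSAT1 was at 48.3 ± 23.8 CPM with IL-1ß alone, and with MSC-CM it was 0.88 higher on the log2 scale (95% interval 0.12 to 1.63, limma adjusted p = 0.705). SLC6A9 was at 6.18 ± 3.07 CPM, 1.23 below IL-1ß plus MSC-CM (interval 0.61 to 1.85, adjusted p = 0.705). CXCL10 was at 49.5 ± 17.4 CPM with IL-1ß alone, and IL-1ß plus MSC-CM differed from it by -0.71 (interval -1.36 to -0.05, adjusted p = 0.705). IL1B was at 24.4 ± 7.27 CPM with IL-1ß alone, with each of its libraries above those of the other 2 groups, and IL-1ß plus MSC-CM differed from it by -1.53 (interval -2.97 to -0.09, adjusted p = 0.705). None of these passed over all genes.

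Against the other 2 treated groups, which also had IL-1ß, amino acid and ER genes held calls higher with MSC-CM. IL-1ß plus MSC-CM differed from PRP lysate in 304 genes (2.61%) and from ACS in 143 (1.23%). Over all 35 tested members of the ATF4 list, which were compared through the same MSC-CM libraries as above, 9 were called higher against PRP lysate and 12 against ACS, and 0 lower against either. Of all genes, 1.81% were called higher and 0.8% lower against PRP lysate, and 0.636% and 0.593% against ACS. Of the 24 ER genes 4 were called higher against PRP lysate and 4 against ACS, and 0 lower. CHAC1 was at 2.94 ± 1.88 CPM with PRP lysate and 3.07 ± 1.52 CPM with ACS, log2 differences of 2.49 and 2.40 (limma adjusted p = 0.00301 and 0.00766). CEBPD was at 6.67 ± 1.503 and 8.16 ± 0.208 CPM (2.47 and 2.20, adjusted p = 2.52e-05 and 0.000293). HSPA5 was at 719 ± 40.3 and 753 ± 74.1 CPM (1.40 and 1.34, adjusted p = 0.00216 and 0.00635). CEBPD and HSPA5 means with PRP lysate and ACS lay near the untreated level, while those of CHAC1 were above it without passing (0.64 and 0.73 against untreated cells, adjusted p = 0.587 and 0.752).

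Among the genes that fell, CXCL10 was at 39.3 ± 14.9 CPM with PRP lysate and 32.0 ± 1.90 CPM with ACS, and neither differed from IL-1ß plus MSC-CM past the threshold (log2 -0.37 and -0.15, limma adjusted p = 0.732 and 0.901). CCL3 was at 3354 ± 136 and 2402 ± 213 CPM there and thus far lower with MSC-CM (-2.31 and -1.82, adjusted p = 8.14e-05 and 0.00123). TIMP3 was at 95.2 ± 24.2 and 165 ± 6.34 CPM (-1.70 and -2.52, adjusted p = 0.000621 and 0.000293). STC1 was at 3.64 ± 1.79 and 4.02 ± 0.799 CPM (-1.63 and -1.82, adjusted p = 0.00418 and 0.00446). Against untreated cells CXCL10 was also lower with PRP lysate and with ACS (-1.90 and -2.11, adjusted p = 0.00439 and 0.0123), while CCL3, TIMP3 and STC1 were lower with MSC-CM than with PRP lysate or ACS. With IL-1ß alone these 3 stood at 932 ± 197, 27.7 ± 4.04 and 0.444 ± 0.233 CPM. Against untreated cells CCL3 was higher with PRP lysate (1.07, adjusted p = 0.0157) and TIMP3 with ACS (1.22, adjusted p = 0.0263).

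Against the same untreated libraries, PRP lysate called 186 genes (1.6%) and ACS 43 (0.37%). The list medians against these shared libraries were, for the amino acid stress response, 0.63 with IL-1ß plus MSC-CM, 0.50 with IL-1ß alone, 0.20 with PRP lysate and -0.01 with ACS. For ER chaperones they were 0.63, 0.39, -0.09 and -0.03 in the same order. For mitosis they were 0.73, 0.34, 0.56 and 0.36, for T lymphocyte markers 0.82, 0.62, 0.60 and 0.19, and for chemokines -0.56, -0.20, 0.04 and 0.20. The transcripts of assayed factors had medians of -0.48, 0.07, 0.73 and 0.58.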

How the data were processed

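RNA was sequenced from 15 libraries of horse macrophages. The authors trimmed reads with cutadapt, aligned them to EquCab3.0 with STAR 2.7.3 and counted them per gene with HTSeq in Partek Flow, per the study's methods and processing notes. They deposited counts scaled to the library total (CPM) for each library in 1 table. Whether counting used strand is not given in the sources used here. Listed genes sum to 982495 to 991421 CPM per library. Whole reads were recovered from the CPM steps for 99.85% of values (within 0.15 of a whole read). They were used only for alternatives, namely edgeR 4.0.16, DESeq2 1.42.0 and the TMM factors. The table holds 16932 genes, of which 12 join several Ensembl identifiers.

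Groups came from the labels. The test took every gene averaging 1 CPM or more and was made with limma 3.58.1 (R 4.3.3, trend, pseudocount 1) over 15 libraries in 5 conditions, adjusted by Benjamini-Hochberg, and called at an adjusted p of at most 0.05 and a fold of at least 2. The code was tested on simulated data. Members and gene lists were chosen with earlier results of these data known, and 4 lists (T lymphocyte receptor genes, osteoclast genes, tRNA synthetases, ribosomal proteins) after seeing the values. Named by rule were the 12 largest rises and falls with a symbol, the 3 largest each without one, up to 4 called members of each list or else the 2 of smallest p, and the assayed factors. Other genes named were chosen after their values were seen. Treated and untreated libraries of the same replicate number, each taken about its group mean, correlated at 0.56, 0.46 and -0.32. These values do not settle whether the numbers pair the libraries. A gene that the rule names is not reported here.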

Additional observations from a re-analysis of the deposited data

How the results depend on the processing

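The 77 calls (56 higher, 21 lower) were recomputed under other settings. RLE size factors gave 34 higher and 36 lower, edgeR on the recovered reads gave 34 higher, DESeq2 gave 171 (91 and 80), and no filter gave 13 lower. The 6 libraries alone gave 189 (139 and 50), leaving out the IL-1ß libraries gave 133 (107 higher), array weights gave 291 (240 higher and 51 lower), and no fold threshold gave 223 (162 and 61). Leaving out 1 library at a time gave 10 to 17 calls, 9 to 12 higher and 1 to 5 lower. In fits of the 6 libraries it gave 22 to 319 calls, 17 to 270 higher and 5 to 49 lower, the most without treated library 1 (319) and the fewest without treated library 3 (22). RLE factors on the 6 libraries gave 165 (82 lower), and a T lymphocyte marker covariate centred within groups gave 176 (129 and 47). These last 3 were chosen after seeing the data. Centred within groups, the covariate cannot remove a difference in T lymphocyte content between the groups. TMM factors, a pseudocount of 0.1 and a filter of at least 1 CPM in 3 libraries stayed within 1.5 times of each count. With the replicate number as a block on the 6 libraries, 227 genes were called (168 and 59), though whether the numbers pair the libraries is not settled. Of the 77 calls, 52 remained with RLE factors, 51 with edgeR and 68 with DESeq2, and 46 with these and with the fits of 6 and 12 libraries. The causes were not tested.

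Of the log2 differences of named genes recomputed in these settings, 22 changed direction, all in 4 genes far from the threshold. PTGES (0.00) was at -0.066 with RLE factors on all and on 6 libraries, -0.058 with TMM, -0.13 with DESeq2 and -0.11 with edgeR, and ran from -0.17 to 0.19 as single libraries were left out (below 0 without treated library 2, untreated library 1 or untreated library 2). IL4 (0.10) was at -0.040 with array weights and ran from -0.14 (without treated library 1) to 0.28. IFNG (-0.04) ran from -0.26 to 0.14, above 0 without treated library 1, treated library 3 or untreated library 3. CXCL1 (-0.12) ran from -0.33 to 0.19, above 0 without untreated library 3.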

Other observations

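Of the 40 genes in which IL-1ß plus MSC-CM library 1 departed most from its fellows, 38 were lower in it. ZBED6, a transcription factor, had 5.66 CPM in it against 24.9 and 21.5 CPM in libraries 2 and 3, and the untreated libraries had 4.83, 21.1 and 7.85 CPM. NFAT5, the factor of the osmotic response, had 8.65, 39.0 and 26.7 CPM in treated and 14.1, 58.1 and 26.5 CPM in untreated libraries. TET2, which oxidizes methylated cytosine, had 18.0, 68.9 and 44.2 CPM and 25.9, 94.0 and 37.4 CPM. In these 3 genes library 1 was the lowest of each group, and the spread within both groups exceeded the difference between them. The genes were taken for their departure, so these values are a description. TP53INP1, which promotes autophagy, had 8.40, 27.3 and 27.4 CPM in treated and 3.96, 7.06 and 6.19 CPM in untreated libraries.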
